A study of Mus musculus with 8 samples.

Results

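miR-874 is a microRNA (miRNA) whose hairpin lies within the mouse gene Klhl3. The array probes named for either of its mature arms (mmu-miR-874-3p and mmu-miR-874-5p in the files, miR-874-3p and miR-874-5p below) are described here; they cover 2 of the 1881 mouse miRNAs and 4 of the 4415 mouse probes on the array. The kidneys came from male C57BL/6 mice, 8 weeks old, taken 7 days after unilateral ureteral obstruction (UUO; samples 1, 2, 3 and 4) or after sham surgery (Sham; samples 1, 2, 3 and 8), with 1 array of total RNA per sample. The labels give no genotype change and no agent for either group. The labels number the samples without saying that each came from a separate mouse, so p-values measure the spread between these samples. The pair was chosen by the UUO against Sham values of these same 8 arrays. The difference between UUO and Sham is therefore given below as a description, without a test.

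A miRNA hairpin is cut into a short duplex, and one or both of its arms are loaded into an Argonaute protein, where the bases near the 5′ end of the arm pair with target mRNAs and lower their stability or translation. A miRNA that lies inside a protein-coding gene on the same strand is often, though not always, made from the transcript of that host gene. Klhl3 encodes a substrate adaptor of the CUL3 ubiquitin ligase that marks WNK kinases for degradation in the distal convoluted tubule, the nephron segment where WNK signalling controls salt reabsorption through the thiazide-sensitive cotransporter. Inherited KLHL3 mutations in humans cause familial hyperkalaemic hypertension. UUO blocks urine outflow from one kidney and leads to tubule injury, inflammation and fibrosis.

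The hairpin sequence and the probes are shown because each arm was read through 2 short probes that share all but 1 of their bases. In the hairpin (RefSeq, GRCm38.p6, chr13:58023125-58023200, minus strand, the strand of the Klhl3 promoter entry), capitals mark the bases that the probes are complementary to, and the probe sequences are DNA, 5′ to 3′.
miR-874 hairpin: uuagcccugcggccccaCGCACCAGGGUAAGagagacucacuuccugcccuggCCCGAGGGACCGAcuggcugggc
miR-874-3p, 13-base probe: tcggtccctcggg
miR-874-3p, 12-base probe: tcggtccctcgg
miR-874-5p, 14-base probe: cttaccctggtgcg
miR-874-5p, 13-base probe: cttaccctggtgc
The hairpin is 76 bases long and falls inside the bounds of Klhl3 in the same annotation. The table used holds gene bounds only, so its place in an intron is background knowledge and was not checked. The probes of the 5p arm pair with bases 18 to 31 of the hairpin and those of the 3p arm with bases 54 to 66. The 2 probes of an arm differ by 1 base in length, so they do not read independent stretches of the miRNA.

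The files list the 13-base 3p probe at chromosome 13, 58124540 to 58124551 (mm9, the build of the files), and the 14-base 5p probe at 58124504 to 58124516, each span 1 base shorter than the probe. These listings place the hairpin rather than the exact bases: in none of 80 minus-strand hairpins with both arms listed (0 of 80) was the order of the arms that of RefSeq, against 126 of 126 on the plus strand. The 3p probes are rich in G and C. The 13-base probe holds 76.9% G and C, where the median probe of a tested miRNA holds 53.3% and 36 of the 408 tested probes reach its value. It is also short, at 13 bases against a median of 16. Among other probes of similar length, placed without gaps, the closest, of miR-1901, differed at 2 bases and was detected on 0 arrays. For the 12-base probe, 7 probes were closest, differing at 3 bases, with 2 detections in all over the arrays. RefSeq mature sequences that differed from the 3p probe targets at no more than 2 bases were miR-12203-5p for both 3p probes and miR-7089-5p for the 12-base probe. For the 13-base 5p probe they were miR-500-3p, a tested miRNA, and miR-501-3p, and for the 14-base 5p probe there were 0. The 5 probes closest to the 14-base 5p probe differed at 4 bases, with 8 detections in all over the arrays. Binding of other miRNAs to the probes was not tested. Mature sequences of miR-874 were not used here, so no seed is shown and no miRNA was named for sharing one.

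The arrays had 740 to 800 probes detected in UUO and 720 to 754 in Sham, with 0 saturated spots. The 75th percentiles used for scaling were 434.7 to 481.8 in UUO and 394.3 to 413 in Sham. All 8 arrays were on 1 slide, with the UUO arrays in row 2 and the Sham arrays in row 1, so slide row and surgery cannot be told apart.

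miR-874-3p was lower in UUO kidneys than in Sham kidneys on both of its probes. The processed signal of the 13-base probe, a linear intensity with the background surface removed and before any scaling, was 32.9, 28.6, 28.3 and 30.8 in UUO 1 to 4, and 73.1, 72.4, 70.3 and 72.2 in Sham 1, 2, 3 and 8. All 4 UUO arrays lay far below all 4 Sham arrays, and the arrays of each group lay close together. The group means were 30.2 ± 2.18 in UUO and 72.0 ± 1.20 in Sham (SD, n = 4 each). The unsubtracted spot signal ran from 61.9 to 68.6 in UUO and from 104.7 to 109.3 in Sham. In whole tissue, fewer cells of a type and less RNA per cell cannot be told apart.

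Each probe was printed as 15 spots per array. For the 13-base probe, all 60 UUO spots used and all 57 Sham spots used were well above background by the software's flag. The brightest UUO spot reached 37.2 units and the dimmest Sham spot 61.1, so no spot of one group overlapped the other. The coefficient of variation between spots of an array was 7.98 to 12.5% in UUO and 5.88 to 7.05% in Sham. Spots of an array share 1 RNA sample and are not replicates of a group.

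**Figure D1:**
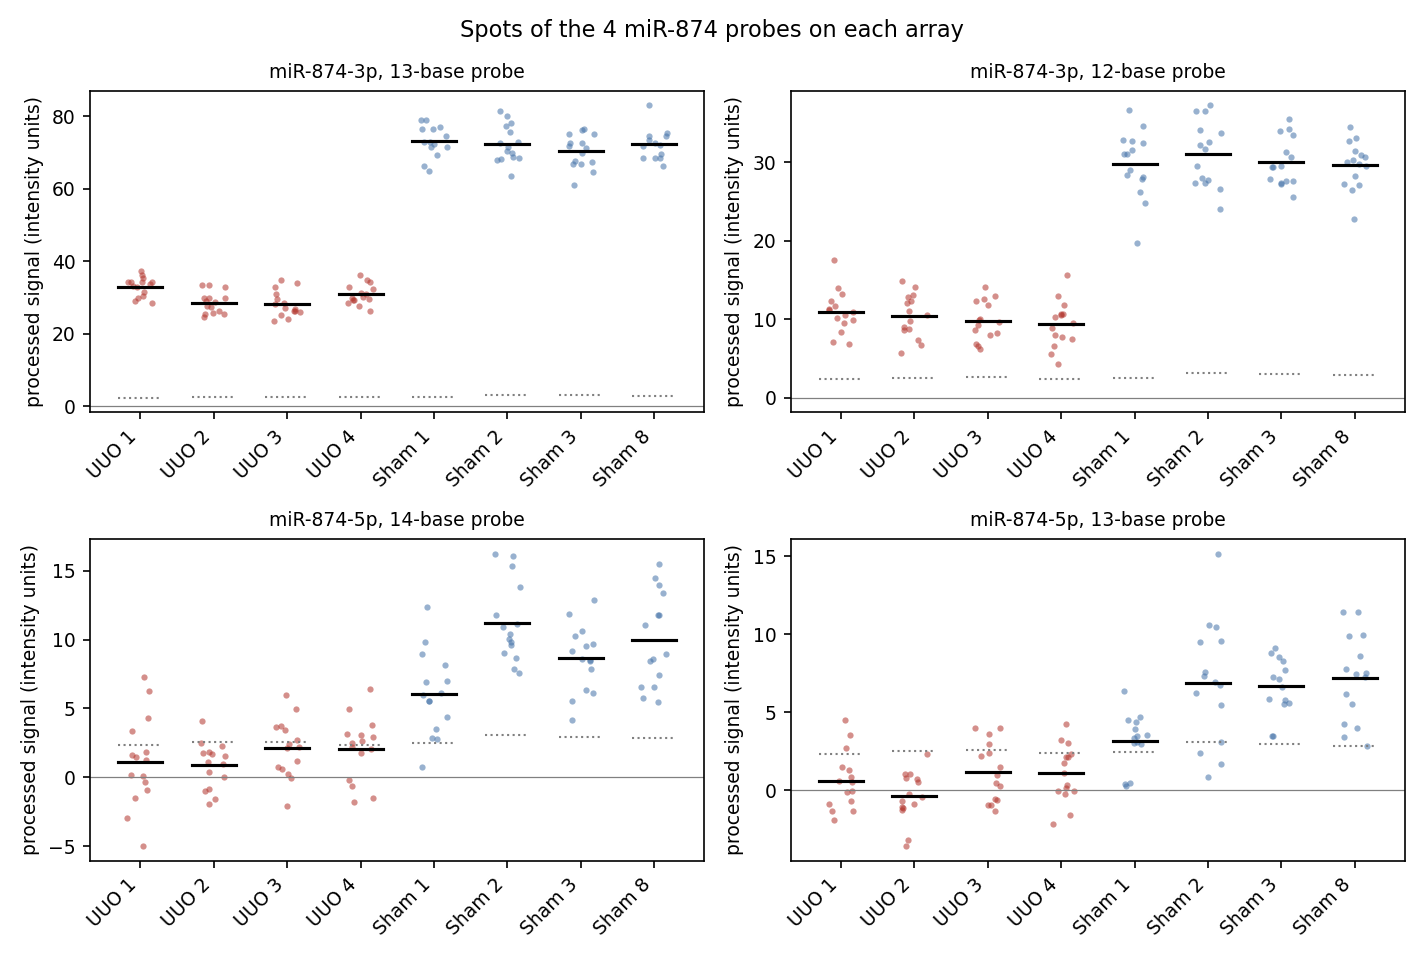
Processed signal (linear intensity units) of every spot used, for the 4 probes of miR-874 on each array, with UUO arrays in red on the left and Sham arrays in blue on the right. Black bars are array means and dotted grey bars the mean plus 1 SD of the negative control spots. The 13-base miR-874-3p probe has UUO array means between 28.3 and 32.9 and Sham array means between 70.3 and 73.1, while the array means of the miR-874-5p probes are at most 11.2.

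The comparison between arrays used signals divided by each array's 75th percentile over 623 probes detected on all arrays, given on the log2 scale. On that scale the 13-base probe stood at −3.87, −3.93, −4.03 and −3.96 in UUO 1 to 4, and at −2.50, −2.44, −2.52 and −2.51 in Sham 1, 2, 3 and 8. The gap between the highest UUO and the lowest Sham array was 1.35, whereas the 4 UUO arrays spanned 0.16 and the 4 Sham arrays 0.08. The UUO minus Sham difference was −1.45 ± 0.05 on the log2 scale (SE of the limma fit, n = 4 each), or 2.74-fold lower. Of the 408 miRNAs tested, 27.7% were called lower, and 26.2% had all 4 UUO values below all 4 Sham values, as miR-874-3p had. Since the decrease is what chose this miRNA, nothing follows from its standing against those shares.

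Among the 380 tested miRNAs detected on at least 1 array of each group, the difference of miR-874-3p was the second most negative, at rank 2. Ranked by fitted difference among all tested miRNAs, it moved with the processing: it stood at rank 4 of 408 in the main setting, at rank 22 with normexp, at rank 20 of 499 with the total signal and at rank 29 of 499 with the ratio table. The miRNA below it was miR-30c-1-3p, at −1.53 ± 0.11. The miRNAs just above it were miR-193a-5p (−1.38 ± 0.08), miR-193a-3p (−1.30 ± 0.10) and miR-190a-5p (−1.29 ± 0.09), all differences in log2 with the SE of the fit. The differences between these neighbours were not tested. A further pair of miRNAs with a more negative fitted difference, miR-7080-5p and miR-6904-5p, was not well above background on any UUO array and is known only by a bound, at least 4.67-fold lower and at least 3.45-fold lower. A bound here compares group means, with the lowest detected signal of each array standing in where it exceeds the probe's own.

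The 12-base probe of miR-874-3p gave the same direction at a lower brightness. Its processed signal was 11.0, 10.5, 9.79 and 9.36 in UUO 1 to 4, and 29.8, 31.0, 30.1 and 29.7 in Sham 1, 2, 3 and 8. Again no UUO array came near a Sham array. Only 9 of its 60 UUO spots were well above background, against 60 of 60 Sham spots, so it counted as detected on 0 of 4 UUO arrays and on 4 of 4 Sham arrays. Its change is therefore a bound, at least 2.77-fold lower in UUO. With the UUO signals taken at face value, the log2 difference was −1.77, and it stood 0.31 from that of the 13-base probe. Among the 240 miRNAs with 2 probes detected on all arrays, the median gap between the probes was 0.04 and the 95th percentile 0.20, but the shorter miR-874-3p probe was not detected in UUO.

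miR-874-5p, the other arm of the hairpin, was not well above background on any of the 8 arrays, so its level in both groups has only a bound and no fold change is given. The processed signal of its 14-base probe was 1.13, 0.863, 2.12 and 2.09 in UUO 1 to 4, and 6.05, 11.2, 8.64 and 9.98 in Sham 1, 2, 3 and 8. The Sham arrays were all higher than the UUO arrays, with Sham 1 the lowest of them. How many other undetected probes had this order of groups was not counted. The pair was also chosen by this contrast, so nothing follows from the order. The 13-base probe showed the same order of groups, at 0.625, −0.385, 1.21 and 1.11 in UUO 1 to 4, and 3.18, 6.91, 6.66 and 7.17 in Sham 1, 2, 3 and 8. Negative control spots averaged 0.261 to 0.571 units on the UUO arrays and 0.241 to 0.801 on the Sham arrays, with SDs between spots of 2.01 to 2.28. The flag for well above background was set on 0 of 60 UUO spots and 8 of 60 Sham spots of the 14-base probe, and on 0 of 60 UUO spots and 1 of 58 Sham spots of the 13-base probe.

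Agilent's total signal per miRNA, which stood at 0.1 wherever the software called miR-874-5p not detected, was 0.1 on all 4 UUO arrays and 0.1, 3.22, 2.44 and 2.87 on Sham 1, 2, 3 and 8. The software thus called it detected on 3 Sham arrays and 0 UUO arrays. In the total signal, miR-874-3p read 12.5, 11.3, 10.9 and 11.6 in UUO 1 to 4, and 29.3, 29.7, 28.3 and 29.3 in Sham 1, 2, 3 and 8.

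A hairpin with only 1 arm bright enough to test was common on these arrays. Both arms were on the array for 723 hairpins. In 200 of these 1 arm was tested (the 3p arm in 73 and the 5p arm in 127), in 48 both were, and in 475 neither was. Where both were tested, the differences of the arms had the same sign in 42 of 48.

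The size of the miR-874-3p decrease depended on the processing and its sign did not. The difference ran from −1.88 with the total signal (3.67-fold lower) to −0.75 with normexp correction and quantile normalization (1.69-fold lower) over the 13 settings other than the removal of an array. The normexp setting adds an offset of 50 to every spot, a value larger than the miR-874-3p signal in UUO. The median difference of all tested miRNAs also moved with the processing, and stood at 0.06 in the main setting. It ran from −0.23 with the total signal to 0.30 when arrays were divided by the dmr control features. Relative to the median of all tested miRNAs, miR-874-3p was at −1.52 in the main setting. It ran from −1.68 with quantile normalization to −0.74 with normexp over the same settings. With each of the 8 arrays left out in turn the difference stayed between −1.48 and −1.43.

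**Figure D2:**
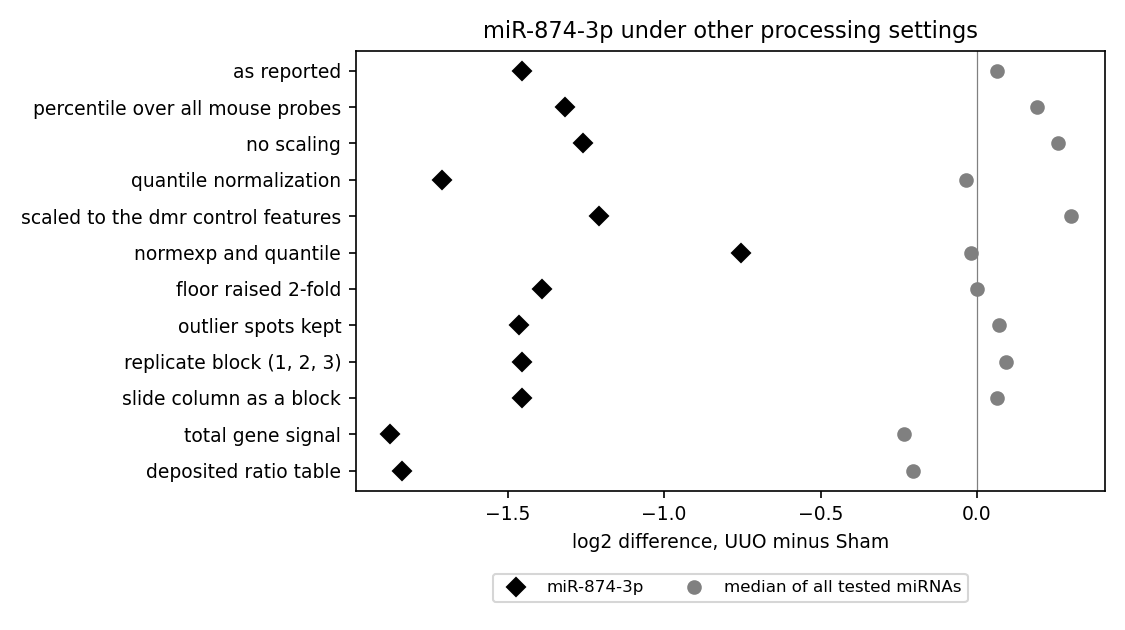
The log2 difference, UUO minus Sham, of miR-874-3p (black diamonds) and the median over all tested miRNAs (grey circles) in the main setting, labelled as reported, and under other ways of processing the arrays. The miR-874-3p values run from −1.88 with the total signal to −0.75 with normexp, all below 0, while the medians lie between −0.23 and 0.30.

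The miRNAs whose pattern over the 8 arrays was most like that of miR-874-3p were miR-193a-5p, miR-190a-5p, miR-30e-5p, miR-193a-3p and miR-30c-1-3p. Likeness was the root mean square difference, over the 8 arrays, between the log2 signals after subtracting each miRNA's own mean. It was 0.13, 0.14, 0.14, 0.16 and 0.18 for these 5, against a median of 0.78 over the other tested miRNAs. The measure is dominated by the step between the groups, and within a group the arrays did not line up: among the UUO arrays miR-874-3p was lowest on UUO 3, while miR-190a-5p, miR-30e-5p and miR-193a-3p were lowest on UUO 4. miR-30e-5p, a member of a family abundant in kidney epithelium, differed by −1.24 ± 0.07 on the log2 scale (SE), at a signal well above the floor. These miRNAs were named for the same step between the groups, so their differences are given here without a test. miR-193a-5p and miR-190a-5p had UUO values at or near the floor of −4.89, so their fitted differences may understate the change. miR-30c-1-3p was also dim in UUO, at −4.64 to −4.30, and its difference was −0.99 with the floor raised 2-fold.

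**Figure D3:**
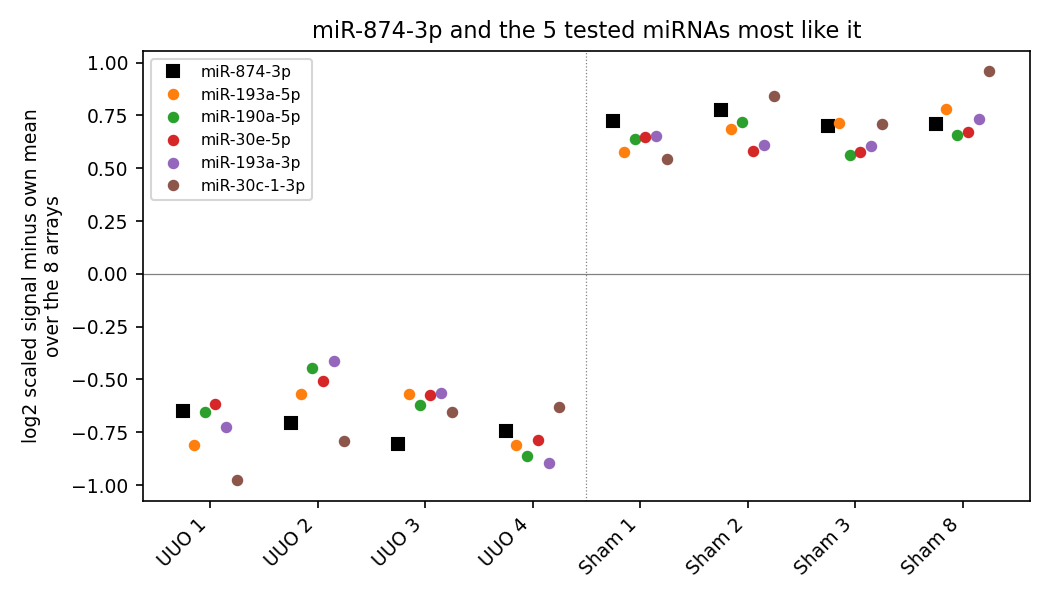
The log2 scaled signal minus each miRNA's own mean over the 8 arrays, for miR-874-3p (black squares) and the 5 tested miRNAs with the smallest root mean square difference from it. All 6 lie below 0 on the 4 UUO arrays and above 0 on the 4 Sham arrays, with miR-874-3p at −3.87 to −4.03 before centring in UUO and −2.52 to −2.44 in Sham.

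miRNAs known from kidney epithelium were mostly lower in UUO as well. Of the 20 tested of 22 listed, 16 were called lower, 4 were not called and none (0) was called higher by limma (also 0 higher at an unadjusted p under 0.05), beside 27.7% called lower and 39.7% called higher among all 408 tested. Leaving out Sham 1 gave 2 called higher and leaving out UUO 3 gave 1, and 3 were called higher with no scaling. The median log2 difference of the list was −0.71, against 0.06 for all tested. Of the 20, 1 had a more negative difference than miR-874-3p, a count from which nothing follows, since miR-874-3p was chosen for its decrease. The largest called changes were those of miR-30c-1-3p (−1.53 ± 0.11, adjusted p = 6.36e-06), miR-190a-5p (−1.29 ± 0.09, adjusted p = 4.39e-06) and miR-192-3p, of a miRNA enriched in kidney tubules (−1.26 ± 0.11, adjusted p = 2.39e-05). miR-192-3p too was dim in UUO, at −4.62 to −4.11, and its difference was −0.81 with the floor raised 2-fold. The 4 not called were miR-200c-3p (0.25), miR-141-3p (0.16), miR-204-5p (0.10) and miR-10a-5p (0.0008), all with a log2 difference above 0. The called miR-200a-3p (−0.44), miR-200b-3p (−0.34) and miR-429-3p (−0.28) had smaller decreases, so the list did not move as a unit. Klhl3 mRNA was not measured on these arrays.

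Most leukocyte and fibroblast miRNAs moved in the opposite direction. In the leukocyte list 10 of 11 tested members were called higher and 0 lower by limma (0 lower at an unadjusted p under 0.05), beside 39.7% called higher and 27.7% lower among all tested, with a median of 2.03. Their summed scaled signal ran from 106.2 to 114.2 on UUO arrays and from 20.2 to 20.4 on Sham arrays. Most of both sums was miR-21a-5p, which is not specific to leukocytes, and the other 10 members summed to between 10.1 and 11.2 in UUO and between 3.29 and 3.71 in Sham. miR-146b-5p, which NF-κB induces, rose 6.34-fold (2.66 ± 0.07, adjusted p = 3.07e-08), miR-21a-5p, raised in fibrosis of many organs, 5.90-fold (adjusted p = 3.2e-09), and miR-511-3p, encoded in the macrophage gene Mrc1, at least 5.99-fold (adjusted p = 3.07e-08). The Sham values of miR-511-3p all stood at the floor, so no spread within Sham entered its p-value. miR-146b-5p was dim in Sham, at −4.49 to −4.27, and its difference was 2.18 with the floor raised 2-fold. The fibroblast and smooth muscle list had 7 of 8 tested members called higher and 0 lower (0 lower at an unadjusted p under 0.05), beside the same shares of all tested, led by miR-214-3p (2.42 ± 0.06), miR-199a-5p (1.95 ± 0.07) and miR-199a-3p (1.80 ± 0.07), and summed to between 15.9 and 18.5 in UUO and between 6.24 and 6.89 in Sham. The others of this list moved less. miR-199b-5p (1.62), miR-214-5p (1.40), miR-143-5p (0.37) and miR-143-3p (0.24) were called higher, and miR-145a-5p (−0.15) was not called. Leaving out UUO 2 gave 1 member called lower. The kidney epithelium list summed to between 69.3 and 80.5 in UUO and between 114.1 and 124.5 in Sham. The part of such shifts in the miR-874-3p value was not tested.

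Some endothelial and red blood cell miRNAs fell, beside 27.7% called lower and 39.7% called higher among all 408 tested. With 2 and 3 tested members, the counts of these lists say little beside those shares. Of the endothelial pair, miR-126a-5p fell (−0.22 ± 0.07, adjusted p = 0.0169) and the other was not called, and the call of miR-126a-5p was lost with the percentile over all probes, no scaling and no filter, while its difference was above 0 with the dmr scaling. Without UUO 2 both of the 2 were called lower. The pair's summed signal was 10.67 to 12.39 in UUO and 12.5 to 13.2 in Sham. Of 3 tested red blood cell miRNAs 2 fell, miR-451a (−0.84 ± 0.20, adjusted p = 0.00592) and miR-144-3p (−0.81 ± 0.23, adjusted p = 0.0147), both with overlapping groups and neither called with no filter (adjusted p = 0.0813 and 0.162). Their list summed to 2.12 to 3.84 in UUO and 3.71 to 5.46 in Sham.

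miRNAs of other host genes were called in both directions. Of 44 tested miRNAs listed as lying in introns of known host genes, 14 were called higher, 21 lower and 9 were not called, beside 39.7% higher and 27.7% lower among all tested, with a median of −0.14. The list shares members with those above, among them all 3 with its largest changes, miR-511-3p of Mrc1, miR-342-3p of Evl (1.71 ± 0.05, adjusted p = 3.07e-08) and miR-30c-1-3p of Nfyc. miR-190a-5p, of the Tln2 gene, and miR-30e-5p, also of Nfyc, belong to it too and to the 5 most like miR-874-3p. The files list 5 other tested miRNAs with a single position on chromosome 13. Of these 2 were called lower and 3 were not called, with a median of −0.11, and none (0) was called higher by limma (0 also at an unadjusted p under 0.05).

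The nearest tested miRNAs with a single listed position on that chromosome lay megabases away. Tested miRNAs without a single listed position could not be placed. On the lower side, at 9.49 Mb in the files' coordinates, let-7d-5p was not called (−0.09 ± 0.05, adjusted p = 0.13, limma). Its sign and call followed the processing. By limma, let-7d-5p was above 0 under 5 other settings and called higher in 1 of these (dmr scaling, adjusted p = 0.0362). It was called lower with the total signal (adjusted p = 0.000807) and the ratio table (adjusted p = 0.00288). On the upper side, at 5.28 Mb, miR-23b-3p was lower (−0.23 ± 0.05, adjusted p = 0.00315) but its call was lost with the percentile over all probes, no scaling, quantile normalization and normexp (adjusted p from 0.261 to 0.639), and it was above 0 with the dmr scaling. The third miRNA named on chromosome 13, miR-466i-3p, was lower (−0.65 ± 0.11, adjusted p = 0.000888) and not called with the floor raised (adjusted p = 0.0817).

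miRNAs rich in G and C were more often called higher than lower. Of the 408 tested miRNAs 350 had a RefSeq mature sequence (85.8%), and 65 of these held at least 65% G and C. In that list 39 were called higher, 6 lower and 20 were not called, beside 39.7% higher and 27.7% lower among all tested. Its median log2 difference was 0.42. Of the 65, 0 were as low as miR-874-3p, but nothing follows from this count, since miR-874-3p was chosen for its decrease. The largest called changes were increases of miR-877-5p (1.52 ± 0.26, adjusted p = 0.00117), miR-2861 (1.47 ± 0.21, adjusted p = 0.000355) and miR-149-3p (1.44 ± 0.22, adjusted p = 0.000547). miR-877-5p was dim in Sham, at −4.89 to −3.85, with Sham 8 at the floor. Counted by probe instead, the 36 tested probes with at least the G and C share of the 13-base miR-874-3p probe, that probe included, had a median difference of 0.47.

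**Figure D4:**
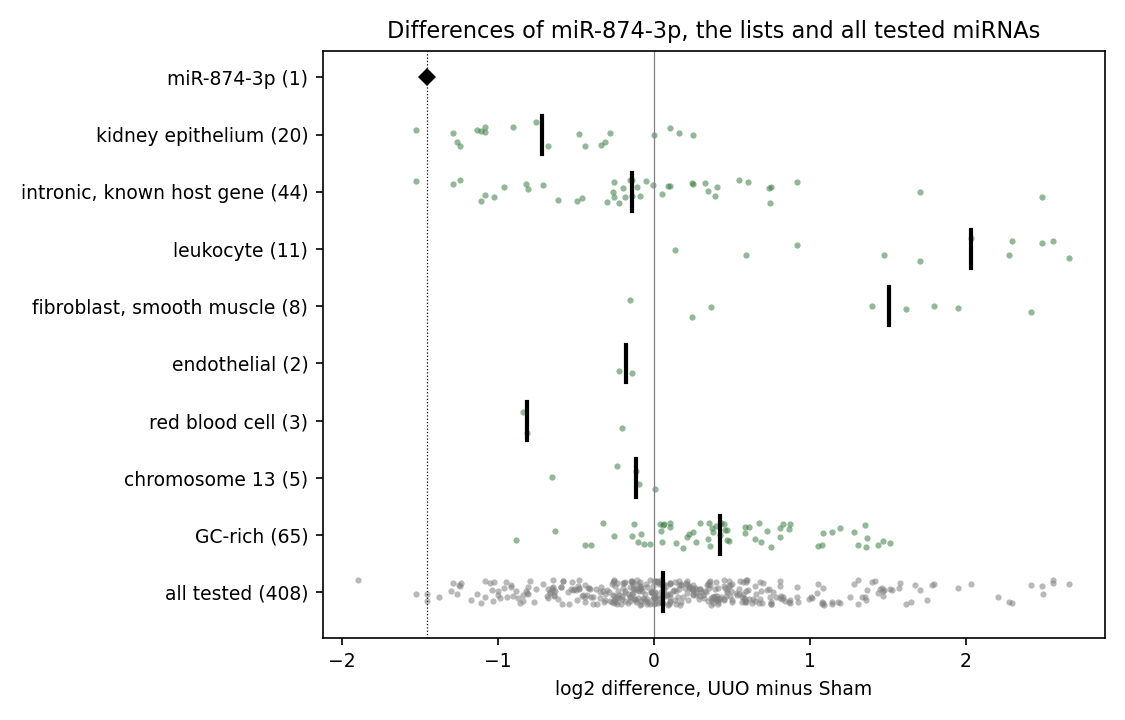
The log2 difference, UUO minus Sham, of miR-874-3p (black diamond and dotted line at −1.45), of the tested members of each list (green) and of all tested miRNAs (grey), with black bars at the medians and the number tested in brackets. The kidney epithelium median is −0.71, the leukocyte median 2.03, the GC-rich median 0.42 and that of all tested miRNAs 0.06.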

How the data were processed

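Total RNA was treated with phosphatase, ligated to a Cy3 nucleotide, per the labels' protocols, and hybridized to a 1-colour Agilent array. Per the file headers and the submitters' processing notes, the deposited spot intensities were made by the authors with Agilent Feature Extraction 10.7.3.1, minus a fitted background, with positions on mm9 and no normalization between arrays. The authors' deposited series table holds ratios, equal to the total signal per miRNA after an array factor and a miRNA factor were applied; the sources used here do not give the basis of either.

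Outlier spots (2.64 to 2.95% per array) and control spots were left out and the spots of a probe averaged. A probe was detected when over 50% of its spots were well above background. Arrays were divided by their 75th percentile over 623 probes detected on all 8, raised to a floor (log2 −4.89) and logged. The brighter probe stood for a miRNA, and the 408 miRNAs detected on at least 4 arrays were fitted with limma 3.58.1 in R 4.3.3 (lmFit, eBayes, group as the only term), with Benjamini-Hochberg adjusted p over all 408 and a threshold of 0.05. The fit was tested on simulated data. The number of arrays limits the precision.

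The members, the lists and the alternatives were chosen with earlier results of these data known, so no count over a list is independent evidence. The lists were kidney epithelium, intronic, leukocyte, fibroblast and smooth muscle, endothelial, red blood cell, chromosome 13 and GC-rich. Named miRNAs were the members, the 5 most like miR-874-3p and the 3 next to it on each side by fitted difference. They also included the nearest tested miRNA with a single listed position on each side on chromosome 13. From each list the 3 called members with the largest change were named. A rule to name miRNAs sharing a seed was not applied. Alternatives covered scaling, background correction, the floor, the filter, outlier spots, the total signal, the ratio table, each array left out, and blocks for replicate number and slide column.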

Additional observations from a re-analysis of the deposited data

Results flagged for a closer look

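In 5 of the 56 groups of 4 arrays examined, 1 array stood apart, its gap to the next, as a share of the group's range, being over Dixon's critical value for 4 samples. Chance alone gives about 5% of groups. For the 13-base probe of miR-874-5p the array was Sham 1, lowest at a scaled signal of 0.00771 against 0.0165 to 0.0175 on the other Sham arrays (gap ratio 0.895), with no array detected. Sham 1 was also the lowest Sham array for miR-7080-5p (−3.65 on the log2 scale, gap ratio 0.85) and for miR-6904-5p (−4.62, gap ratio 0.911). For miR-21a-5p Sham 2 was lowest (4.04, gap ratio 0.864), and for miR-214-3p Sham 8 was highest (−2.31, gap ratio 0.986). Neither probe of miR-874-3p met this limit in either group.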

How the results depend on the processing

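miR-874-3p kept its sign in every setting run, by its longer probe where a setting used probes. Dividing by the percentile over all probes gave a log2 difference of −1.32. It was −1.26 with no scaling, −1.71 with quantile normalization, −1.21 with the dmr scaling, −0.75 with normexp, −1.39 with the floor raised 2-fold, −1.88 with the total signal and −1.84 with the ratio table. The shorter probe gave −1.30 with quantile normalization, −0.44 with normexp and −0.14 with the raised floor, which lies near its Sham level. The signal over background leaves only bounds for miR-874-5p in both groups and for the shorter 3p probe in UUO.

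Of all tested miRNAs, the count called lower was 67 with the dmr scaling, 217 with the total signal and 207 with the ratio table, against 113; the total signal and the ratio table had 499 miRNAs tested and the others, with a filter, 408. The split of calls also moved with the processing, from 162 higher and 113 lower as reported. It was 194 and 84 with the percentile over all probes, 212 and 77 with no scaling and 221 and 67 with the dmr scaling. It was 123 and 160 with quantile normalization, 129 and 158 with normexp and 109 and 217 with the total signal. In the kidney epithelium list 3 were called higher with the percentile over all probes, with no scaling and with the dmr scaling. In the intronic list 8 were higher with quantile normalization and with normexp and 6 with the total signal and the ratio table, while 13 were lower with the percentile over all probes, no scaling and the dmr scaling. With the total signal and the ratio table, 1 leukocyte member was lower, as was 1 fibroblast and smooth muscle member, which was also lower with quantile normalization and normexp.

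In the endothelial list 1 was higher with quantile normalization and with normexp; 0 were lower with the percentile over all probes, no scaling, the dmr scaling, no filter and the replicate block, and 2 with the raised floor, the total signal and the ratio table. With no filter 0 red blood cell members were lower. On chromosome 13, 1 was higher with no scaling and 2 with the dmr scaling; 1 was lower with the percentile over all probes, no scaling, the dmr scaling, the raised floor and the replicate block, and 5 with the total signal and the ratio table. In the GC-rich list 25 were higher with no filter, and 3 were lower with the percentile over all probes, 11 with quantile normalization, 1 with the dmr scaling, 10 with normexp and 14 with the total signal and the ratio table. let-7d-5p was at 0.0437 with the percentile over all probes, 0.10 with no scaling, 0.12 with quantile normalization, 0.15 with the dmr scaling and 0.12 with normexp, and the dmr scaling put miR-23b-3p at 0.0120 and miR-126a-5p at 0.0231. With 1 array left out, the kidney epithelium list had 0 to 2 called higher (2 without Sham 1 and 1 without UUO 3), the fibroblast and smooth muscle list 0 to 1 lower (1 without UUO 2) and the endothelial list 1 to 2 lower (2 without UUO 2). The cause of these changes was not tested. Of 480 values of named miRNAs under other settings, 456 kept their direction and their side of the threshold, 15 lost the call, 2 gained one and 7 turned sign.

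The replicate numbers 1, 2 and 3 occur in both groups. Deviations from the group means correlated at −0.00, 0.12 and −0.30 within these pairs. These values gave no clear sign of a pairing, but with so few arrays they cannot exclude one. With the replicate block on these 6 arrays, 142 miRNAs were called higher and 84 lower, and miR-874-3p was at −1.45 by its longer probe. Named miRNAs not called under the block were miR-23b-3p and miR-6904-5p (adjusted p = 0.0535 each), miR-144-3p (0.0691) and miR-126a-5p (0.0706). miR-6904-5p was also not called with no filter (0.0826). The UUO values of miR-6904-5p all stood at the floor, so no spread within UUO entered its p-values. Each slide column held 1 array of either group, so that block cannot move a difference.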
